A study of Mus musculus with 12 samples.

Results

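Cytosolic sulfotransferase genes were followed across 12 mouse livers profiled by RNA-seq. The family was represented by 9 genes taken by symbol: Sult3a1, Sult2a1, Sult2a2, Sult1a1, Sult1b1, Sult1c2, Sult1d1, Sult1e1 and Sult5a1, out of 27304 genes in the count table. The family was chosen by the genotype differences of Sult3a1 and Sult2a1 in these same livers, with their values by sex also in view. Genotype values of the 9 are therefore given as descriptions, and nothing is read from the genotype calls counted below. Tests by sex and of the interaction are not independent support. The table holds 21 rows named Sult in all, and the other 12 are used only to set the 9 beside their relatives.

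All mice were Apoe-/-, without apolipoprotein E, which carries lipids in plasma, and all were labelled as 12 weeks on HFD. In 6 of them the aryl hydrocarbon receptor was also deleted (Apoe-/-AhR-/-, called Ahr-null here), and the other 6 were Apoe-/- controls. The groups were Ahr-null females, control females, Ahr-null males and control males, with 3 livers in each. Every mouse carried the Apoe deletion, so no group shows the liver without it, and the labels name no cell type for the AhR deletion. The labels give no animal identities, so the spread and the p-values measure the difference between these samples.

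Cytosolic sulfotransferases move a sulfonate group from the donor PAPS onto small molecules, which makes most of them more soluble in water and easier to excrete. The Sult1 enzymes act mainly on phenols, catecholamines, thyroid hormones and estrogens, the Sult2 enzymes on hydroxysteroids and bile acids, and mouse Sult3a1 on amines. In mouse liver several Sult2a genes and Sult3a1 are known for higher expression in females, set largely by the sex-dependent pattern of growth hormone secretion. The aryl hydrocarbon receptor is a ligand-activated transcription factor of xenobiotic metabolism.

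The libraries held between 9794253 and 18924880 counts. Levels are given as CPM (the count scaled to a fixed library total) after TMM scaling, a correction for differences in library composition. From 39.8 to 59.8% of counts in Ahr-null females, 56.5 to 69.8% in control females, 30.4 to 52.7% in males without AhR and 46.7 to 57.3% in control males came from genes of the mitochondrial genome. This share moved with genotype, and its part in the results was not tested. Ahr read between 13.7 and 24.5 CPM in Ahr-null livers against 12.4 to 25.0 CPM in controls, and counts summed over a gene do not reveal a missing exon. Its target Cyp1a2 read 47.0 to 217 CPM in Ahr-null livers against 452 to 1170 CPM in controls. Cyp1a2 was 1 of 7 tested genes on a check list of Ahr, Apoe and AhR targets. By genotype averaged over the sexes, 3 of the 7 log2 differences were positive and 4 negative (median -0.008), and edgeR called 2 lower. In females 5 of the 7 were positive (median 0.34), as were 7486 of all 13641 genes tested, and 1 was called lower. The 10 hepatocyte markers, none of them at 0 in any group, summed to 27060 to 72890 CPM in Ahr-null females, against 21760 to 25720 CPM in control females. In males the sums were 25360 to 42140 CPM in Ahr-null livers and 22300 to 27870 CPM in control livers. Transcripts of 20 neural and glial markers were high in a pair of libraries, Ahr-null female replicate 1 (668 CPM) and control male replicate 1 (406 CPM), while the remaining 10 held 49.1 to 136 CPM. The first of these also stood apart in its correlation with the others (lowest Pearson r 0.805, across genes), in cholangiocyte and stellate cell marker sums of 261 and 1068 CPM, and in an Xist level of 155 CPM against 904 and 1292 CPM in the other Ahr-null females. Its Kdm5d, a Y-linked gene, read 2.02 CPM against 0 and 0.0552 CPM in those females. Markers of T cells summed to 6.30 to 11.2 CPM in Ahr-null females, against 2.08 to 3.80 CPM in control females, with 5 of 5 log2 differences positive (median 1.89) and none called by edgeR. Cholangiocyte markers summed to 45.2 to 261 CPM in Ahr-null females, against 24.9 to 118 CPM in control females, with 6 of 6 differences positive (median 1.08) and none called. Without replicate 1 the Ahr-null female cholangiocyte sums were 82.0 and 45.2 CPM, within the control range. In females stellate cell (6 of 6) and B cell (4 of 4) differences were also positive, as were 7486 of all 13641 genes tested. Positive too were 3 of 8 Kupffer cell, 3 of 7 endothelial, 5 of 10 hepatocyte and 9 of 11 neural and glial differences. By genotype averaged over the sexes, edgeR called 1 Kupffer cell marker higher, where 1.06% of all genes were called. The part of these marker levels in the Sult differences described next was not tested. In whole liver, fewer cells of a type and less RNA per cell cannot be told apart.

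Sult3a1 was a transcript of control females. It read 0, 0 and 0.111 CPM in Ahr-null females, against 89.4, 54.8 and 73.6 CPM in control females. Males read 0.158, 0.233 and 0.118 CPM when Ahr-null and 0, 0.0775 and 0.382 CPM when control. The 3 control females therefore stood far above all other libraries, while the remaining groups lay near the detection limit, with male groups that overlapped. Ahr-null females held 2 counts in all 3 libraries together and control females 2681. That is a ratio of 0.000583 after scaling, a fold of 1715 lower with an exact 95% interval of 474 to 14170 that covers counting error only.

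Between the sexes, Sult3a1 had 2681 counts in control females against 7 in control males, a ratio of 435 with an exact 95% interval of 211 to 1082. In Ahr-null livers the direction was the opposite, 2 counts in females against 10 in males, a ratio of 0.279 whose exact interval runs from 0.0297 to 1.31. No p-value is given here, because Sult3a1 was chosen with these differences known and entered the tested genes through control females alone. For the same reason its calls listed below are no independent support. A gene entered where 3 or more libraries reached 0.687 CPM, and the 3 control females were the only libraries of Sult3a1 that did.

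Sult3a1 (ENSMUSG00000069668) lies on the plus strand of chromosome 10, 33857721 to 33879532 (GRCm38), with its close relative Sult3a2 on the same chromosome, 33766424 to 33786704, on the minus strand. Sult3a2 was counted at lower levels with the same distribution over groups: 0 counts in Ahr-null females against 43 in control females, at least 18.3-fold lower if 3 counts per group are taken as the floor, and 0 counts in both groups of males. Of the 50-base windows of the Sult3a1 transcripts, 6.15% occur in another Sult gene. The promoter of Sult3a1 is shown for the match it holds to the STAT5 letters TTCNNNGAA (in capitals), 109 bases before the start site. STAT5 is the factor that carries the growth hormone signal to the nucleus. The sequence covers 250 bases before to 50 bases after the start (RefSeq, GRCm38.p6, plus strand, chr10:33857472-33857771).
Sult3a1: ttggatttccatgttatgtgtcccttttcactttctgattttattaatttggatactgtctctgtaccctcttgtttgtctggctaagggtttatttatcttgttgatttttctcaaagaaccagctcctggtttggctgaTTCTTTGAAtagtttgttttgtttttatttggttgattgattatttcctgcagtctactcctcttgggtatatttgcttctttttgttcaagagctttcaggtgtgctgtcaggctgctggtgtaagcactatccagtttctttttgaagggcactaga

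Of 17 Sult genes with a promoter in the RefSeq table, Sult3a1 was the 1 gene with these letters on either strand, and 8.3% of 32851 promoter windows of the same length in the mouse table hold them. Sult2a1 and Sult2a2 had no promoter there and were not searched. A match is a description of letters, not a bound site.

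**Figure D1:**
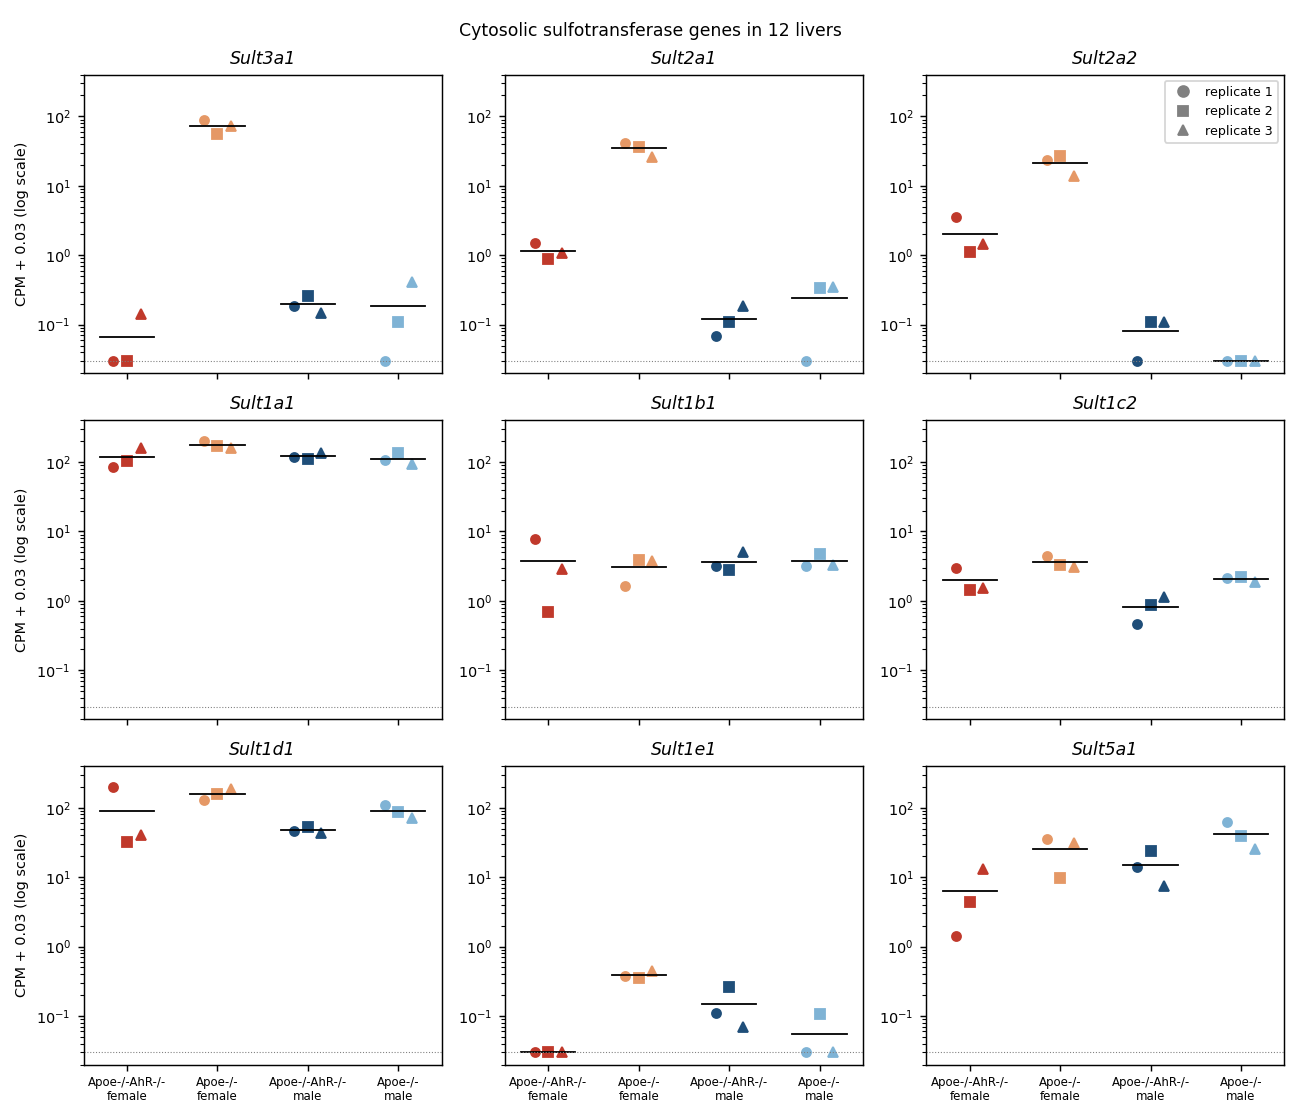
Level of each of the 9 genes in every library, as CPM plus 0.03 on a log axis, with markers for replicates 1, 2 and 3 and a line at the group mean; the dotted line is a count of 0. Sult3a1, Sult2a1 and Sult2a2 sit between 13.6 and 89.4 CPM in control females and at or below 3.49 CPM in every other library, while Sult1a1 varies from 85.96 to 204 CPM over all 12.

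Sult2a1 and Sult2a2 encode hydroxysteroid sulfotransferases that also take bile acids, and both were female transcripts in either genotype. Sult2a1 read 1.47, 0.842 and 1.05 CPM in Ahr-null females, against 41.4, 36.0 and 25.9 CPM in control females. Ahr-null males had 0.0395, 0.0776 and 0.158 CPM of it, against 0, 0.310 and 0.319 CPM in control males. The order was control females, then Ahr-null females, then the males, whose groups overlapped. The genotype difference in females was -4.96 ± 0.46 on the log2 scale, and averaged over the sexes it was -3.06 ± 0.47.

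Sult2a2 read 3.49, 1.08 and 1.44 CPM in Ahr-null females, against 23.5, 26.8 and 13.6 CPM in control females. In males it had 0, 1 and 2 counts in the Ahr-null libraries, against 0 counts in all 3 control libraries. Here too the females of both genotypes lay above all males without overlap. The genotype difference in females was -3.44 ± 0.51 on the log2 scale.

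Both genes entered the tested genes through libraries of females alone, 3 of each genotype, so a difference between the sexes was built into their selection. The p-values by sex below are therefore descriptions and no independent support for a sex difference. A gene is called here where the p of edgeR's quasi-likelihood test, adjusted by Benjamini-Hochberg over 13641 genes, is below 0.05. Sult2a1 was higher in control females than in control males by 7.24 ± 0.55 (log2, adjusted p = 5.22e-05), and higher in Ahr-null females than in Ahr-null males by 3.44 ± 0.61 (adjusted p = 0.0336), both by edgeR's quasi-likelihood test. With a floor of 3 counts, Sult2a2 was 283-fold higher in control females than in control males (749 counts against 0, exact 95% lower limit 230, adjusted p = 0.000491). In Ahr-null livers it was 38.1-fold higher in females (82 counts against 3, exact 95% interval 12.6 to 189, adjusted p = 0.0182). The calls in control livers held without any single library, but each of those fits keeps the same selection. Those in Ahr-null livers did not: Sult2a1 stayed called when control male replicate 1 or Ahr-null female replicate 1 was left out, with adjusted p from 0.0710 to 0.214 for the other 10 omissions. Sult2a2 stayed called in 6 of 12 omissions, those of any control male, control female replicate 3 and Ahr-null female replicates 1 and 2, with adjusted p from 0.0587 to 0.112 for the others. The interaction of Sult2a1, its genotype effect in females minus that in males, was -3.80 ± 1.0 (adjusted p = 0.836), so the smaller sex difference in Ahr-null livers was not shown by that test. DESeq2 gave it an adjusted p of 0.0402 and limma on the deposited values 0.00286.

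Both genes lie among 8 Sult2a genes within 1 cluster on chromosome 7 (GRCm38): Sult2a2 (ENSMUSG00000070811, plus strand, 13733505 to 13779636) and Sult2a1 (ENSMUSG00000078798, minus strand, 13796246 to 13837409). Their transcripts are 97.6% identical over 739 aligned bases, and 62.1% of the 50-base windows of Sult2a2 and 33.2% of those of Sult2a1 occur in another Sult gene. Reads could thus be split between them, and their single values are uncertain. The sum over Sult2a1 to Sult2a6 does not depend on how reads were divided among these 6 genes. It does depend on whether reads with several matches were dropped or counted for each gene, which is not given. It was 10.3, 3.25 and 3.76 CPM in Ahr-null females, against 88.4, 100.8 and 57.3 CPM in control females. The sum did not exceed 0.382 CPM in any male library of either genotype.

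Among their neighbours, Sult2a5 read 4.32, 0.722 and 0.773 CPM in Ahr-null females, against 17.7, 28.9 and 12.8 CPM in control females, and had at most 1 count in any male library. The genotype difference in females did not pass the test (-3.41 ± 0.67, adjusted p = 0.0886). It did without Ahr-null female replicate 1, whose 4.32 CPM lay apart from the other 2 of its group (-4.70, adjusted p = 0.00081). With a floor of 3 counts, Sult2a5 was 256-fold higher in control females than in control males (676 counts against 0, exact 95% lower limit 207). It too entered the tested genes through females alone. Sult2a6 read 0.367, 0.481 and 0.387 CPM in Ahr-null females, against 4.07, 5.02 and 3.16 CPM in control females. Its counts summed to 19 in Ahr-null females, 143 in control females, 0 in Ahr-null males and 1 in control males. The ratio of females to males was 162 in control livers, with an exact 95% interval of 28.7 to 6455. In Ahr-null livers females were at least 8.83-fold higher. Sult2a6 and Sult2a4 entered the tested genes through control females alone and get no test here. Sult2a4, with 11 counts in Ahr-null females and 48 in control females, and Sult2a3, with 0 and 36, had no count in any male.

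The promoters of Sult2a5 and Sult2a6, at either end of the stretch of female transcripts, are shown in lower case throughout because neither holds the STAT5 letters, the core of the xenobiotic response element GCGTG, which the aryl hydrocarbon receptor binds, or the nuclear receptor half-site AGGTCA, on either strand. They are 80.9% identical over 256 aligned bases (RefSeq, GRCm38.p6; Sult2a5 on the plus strand, chr7:13623717-13624016; Sult2a6 on the minus strand, chr7:14254821-14255120).
Sult2a5: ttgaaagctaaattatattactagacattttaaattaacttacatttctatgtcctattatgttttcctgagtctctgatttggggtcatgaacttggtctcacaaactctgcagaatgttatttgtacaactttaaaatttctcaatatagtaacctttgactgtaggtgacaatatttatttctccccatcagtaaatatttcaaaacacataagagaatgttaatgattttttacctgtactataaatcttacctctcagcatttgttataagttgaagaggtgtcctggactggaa
Sult2a6: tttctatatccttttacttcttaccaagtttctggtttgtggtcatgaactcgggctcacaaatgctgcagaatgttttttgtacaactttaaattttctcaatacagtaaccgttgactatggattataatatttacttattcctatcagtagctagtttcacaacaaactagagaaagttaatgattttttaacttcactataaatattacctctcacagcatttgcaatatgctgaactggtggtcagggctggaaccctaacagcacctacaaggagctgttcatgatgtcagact

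The 2 genes at the far end of the cluster were distributed otherwise. Sult2a8, which in mouse sulfonates bile acids, read 6.98, 2.11 and 11.8 CPM in Ahr-null females, against 80.3, 86.0 and 113 CPM in control females. The male livers held 20.9, 143 and 20.9 CPM when Ahr-null, against 215, 218 and 192 CPM when control. Both sexes were lower in Ahr-null livers without overlap, and Ahr-null male replicate 2 stood close to the controls. Averaged over the sexes the difference was -2.75 ± 0.52 (adjusted p = 0.0275). That call was kept without Ahr-null male replicate 2, Ahr-null female replicate 1 or Ahr-null female replicate 3 and lost in the other 9 omissions (adjusted p from 0.0614 to 0.114). Leaving out both libraries high in neural transcripts also lost it (adjusted p = 0.0663). Sult2a8 was lower in females of each genotype without overlap, but neither sex difference passed the test (-3.14 ± 0.75, adjusted p = 0.159, in Ahr-null livers; -1.16 ± 0.69, adjusted p = 0.94, in control livers). Sult2a7 had 1 count in Ahr-null females against 39 in control females, and 7 in Ahr-null males against 28 in control males. It entered the tested genes through 3 control libraries alone and gets no test. Sult2a7 and Sult2a8 share no 50-base window with another Sult gene. Sult2b1, which sulfonates cholesterol and pregnenolone, lies outside the cluster. It read 1.56, 0.722 and 0.497 CPM in Ahr-null females, against 0.138, 0.546 and 0.0833 CPM in control females, and entered the tested genes through 3 Ahr-null libraries alone.

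**Figure D2:**
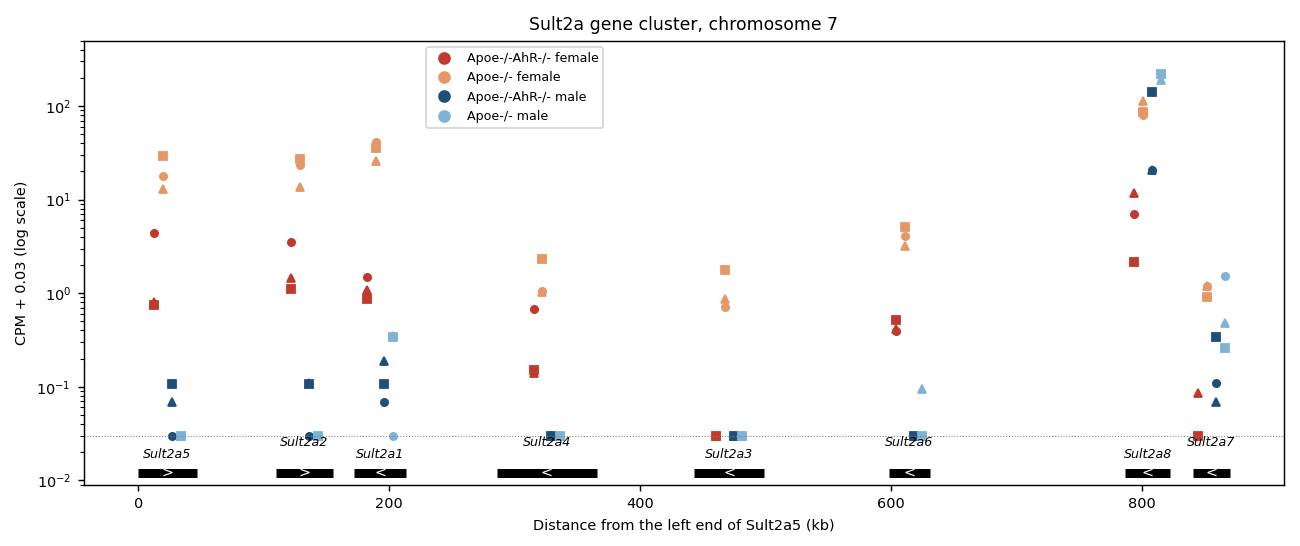
The Sult2a cluster drawn to scale by distance from the left end of Sult2a5 in kb (black bars are genes, arrows their strand), with the level of each gene in every library above it as CPM plus 0.03 on a log axis; the dotted line is a count of 0 and marker shapes are replicates. The 6 genes from Sult2a5 to Sult2a6 hold counts mainly in females, while Sult2a8 reads 192 to 218 CPM in control males and 80.3 to 113 CPM in control females.

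Sult1a1, the main phenol sulfotransferase of liver, was abundant in every liver. It read 85.96, 102 and 160 CPM in Ahr-null females, against 204, 170 and 158 CPM in control females. In males it read 118, 112 and 133 CPM in Ahr-null livers, against 106, 136 and 93.5 CPM in control livers. The genotype groups overlapped in both sexes, with a log2 difference of -0.61 ± 0.29 in females. Control females lay above control males without overlap, but the sex difference did not pass the test (0.67 ± 0.29, adjusted p = 0.825). Sult1a1 (chromosome 7, 126672865 to 126676432, minus strand) lies far from the Sult2a cluster.

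Sult1d1, which acts on catecholamines, is abundant in rodent liver. It read 196, 32.0 and 39.9 CPM in Ahr-null females, against 128, 159 and 183 CPM in control females. Ahr-null males had 45.9, 53.3 and 42.6 CPM of it, against 109, 87.4 and 71.4 CPM in control males. Ahr-null livers were lower without overlap in males. In females the value of 196 CPM belonged to replicate 1, the library that stood apart, and the other 2 Ahr-null females lay below every control liver. The difference in females was -0.81 ± 0.54 with that library and -2.11 without it (log2), and averaged over the sexes it was -0.87 ± 0.38 with it and -1.51 without it. In males it was -0.92 ± 0.54. The brain member Sult4a1, which did not pass the filter on low counts, read 10.5 CPM in the same Ahr-null female library and 5.64 CPM in control male replicate 1, against at most 0.546 CPM elsewhere. The part of the neural transcripts in the Sult1d1 level of that library was not tested. Female and male Sult1d1 did not differ by the test in control livers (0.81 ± 0.54, adjusted p = 0.984).

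The promoter of Sult1d1 is shown for its match to the xenobiotic response element core, read as CACGC on this strand (in capitals) 47 bases before the start site. Of the 7 of the 9 genes with a promoter in the table, Sult1b1 and Sult1d1 hold GCGTG on either strand, and 32.4% of the 32851 promoter windows do. The half-site AGGTCA, found in 16.3% of windows, occurs in those of Sult1b1 and Sult1e1 (RefSeq, GRCm38.p6, minus strand, chr5:87568957-87569256).
Sult1d1: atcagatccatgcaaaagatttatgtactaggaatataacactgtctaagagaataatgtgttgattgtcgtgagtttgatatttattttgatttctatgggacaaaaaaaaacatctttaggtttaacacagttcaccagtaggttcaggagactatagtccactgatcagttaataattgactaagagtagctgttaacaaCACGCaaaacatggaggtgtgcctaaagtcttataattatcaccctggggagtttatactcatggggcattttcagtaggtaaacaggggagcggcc

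Sult1c2, a less studied member of the same branch, was low in all livers and lower in Ahr-null livers of both sexes. It read 2.94, 1.38 and 1.49 CPM in Ahr-null females, against 4.35, 3.27 and 3.08 CPM in control females. The male livers held 0.434, 0.853 and 1.11 CPM when Ahr-null, against 2.11, 2.17 and 1.85 CPM when control. Neither pair of genotype groups overlapped. The log2 differences were -0.90 ± 0.41 in females, -1.35 ± 0.43 in males and -1.13 ± 0.30 averaged over the sexes. Females lay above males without overlap in each genotype, and neither sex difference passed the test (1.26 ± 0.43, adjusted p = 0.421, in Ahr-null livers; 0.81 ± 0.41, adjusted p = 0.889, in control livers).

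Sult1b1, known for thyroid hormones and small phenols, overlapped between the genotypes in both sexes. It read 7.72, 0.662 and 2.87 CPM in Ahr-null females, against 1.59, 3.82 and 3.75 CPM in control females. In males it read 3.16, 2.71 and 5.05 CPM in Ahr-null livers, against 3.20, 4.65 and 3.25 CPM in control livers. Its highest value again belonged to Ahr-null female replicate 1.

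Sult1e1, the estrogen sulfotransferase, was near the limit of detection and did not pass the filter on low counts. It had 0, 0 and 0 counts in Ahr-null females, against 5, 3 and 5 counts in control females. By the same floor that is 5.54-fold lower, with an exact 95% lower limit of 3.90. It had 2, 3 and 1 counts in Ahr-null males, against 0, 1 and 0 counts in control males, a ratio of 3.82 with an exact 95% interval of 0.464 to 176. Sult1b1, Sult1d1 and Sult1e1 are neighbours on the minus strand of chromosome 5, from 87513339 to 87591594.

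Sult5a1 lies on chromosome 8 (123140192 to 123158315, minus strand), and its substrates are little known. It read 1.38, 4.33 and 13.0 CPM in Ahr-null females, against 35.6, 9.60 and 30.6 CPM in control females. Ahr-null males had 14.1, 23.6 and 7.42 CPM of it, against 62.6, 39.2 and 25.6 CPM in control males. The male groups did not overlap, and the female groups did, through Ahr-null replicate 3 and control replicate 2. The log2 differences were -2.0 ± 0.70 in females, -1.5 ± 0.68 in males and -1.75 ± 0.49 averaged over the sexes. The spread within groups was wide, most of all as a ratio in Ahr-null females.

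**Figure D3:**
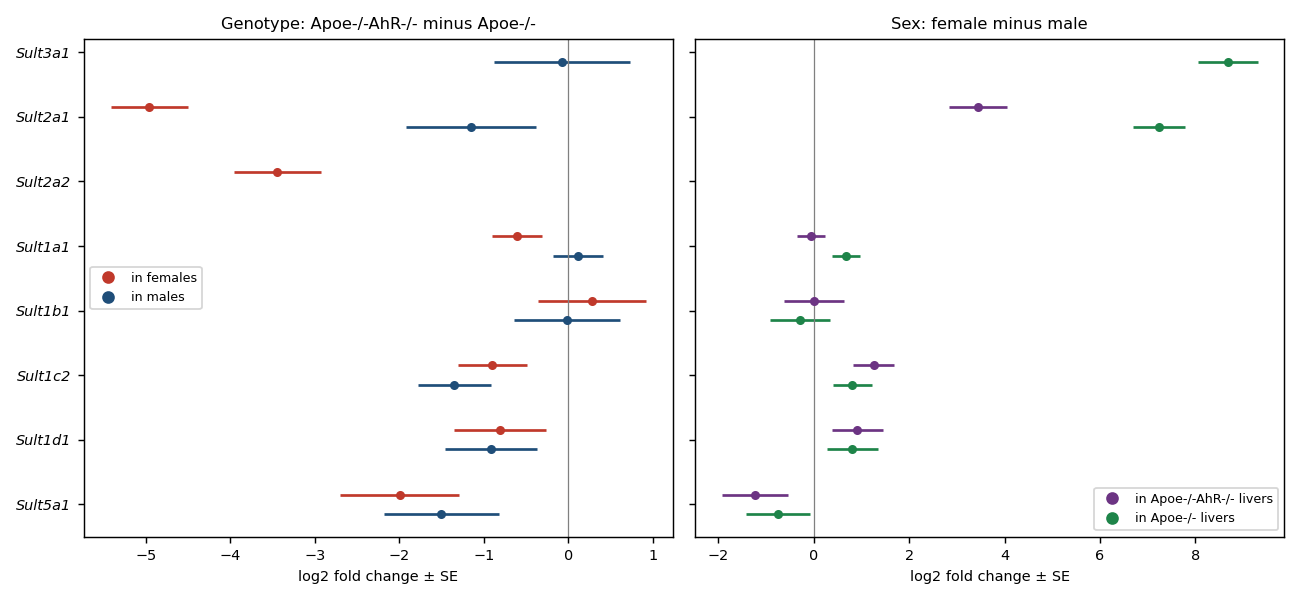
Log2 fold changes with standard errors of the 8 tested genes, by genotype (Ahr-null minus control; red in females, blue in males) and by sex (female minus male; purple in Ahr-null livers, green in control livers). Values are drawn only where each group holds more than 3 counts, so 2 comparisons are missing for Sult3a1 and 3 for Sult2a2. The values of Sult2a1 reach -4.96 by genotype in females and 7.24 by sex in control livers, while those of Sult1a1 lie between -0.61 and 0.67.

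Of the 9 genes, 8 passed the filter on low counts, Sult3a1 through control females alone and Sult2a1 and Sult2a2 through females alone, so that these 3 had to differ between groups. By genotype averaged over the sexes, 2 of the 8 were called, both lower (Sult3a1 and Sult2a1), where 1.06% of all genes were called and 0.528% were called lower. In females 3 were called, all lower (with Sult2a2), where 0.161% of genes were called and 0.132% were called lower. In males none was called by edgeR, DESeq2 or limma, where edgeR called 0.0367% of genes. By edgeR 2 had an unadjusted p under 0.05 in males, as did 792 of all 13641 genes tested. Since the genes were chosen with such differences known, nothing is read from these counts. Without Ahr-null female replicate 1 the averaged count was 4 and that in females 4. Over all omissions of 1 library, from 6 to 663 of all genes were called by averaged genotype and from 3 to 153 in females. The averaged count of members was 0 without control male replicate 3. It was 1 without control male replicate 2, control female replicate 1 or 2, or Ahr-null male replicate 1 or 3. Those in females fell to 2, with the loss of Sult2a2, in the 10 omissions other than that library and Ahr-null male replicate 2. In males, 3 of the 8 (Sult1c2, Sult1d1 and Sult5a1) were lower in Ahr-null livers without overlap, as were 7.34% of all genes tested. In females, 4 of the 8 (Sult1c2, Sult2a1, Sult2a2 and Sult3a1) were, against 9.86% of all genes tested.

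For the interaction, 1 of the 8 was called (Sult3a1), where 0.00733% of genes were, and nothing is read from it. By sex, 3 of the 8 were called higher in control females than in control males (Sult3a1, Sult2a1 and Sult2a2), where 0.352% of all genes were called and 0.154% were called higher. In Ahr-null livers 2 of the 8 were higher in females (Sult2a1 and Sult2a2), where 0.279% of genes were called and 0.0513% were called higher. These are the 3 genes that the filter let in through females, and nothing is read from their number. None of the 8 was called lower in females by edgeR, DESeq2 or limma in either genotype, and none had an unadjusted p under 0.05 in that direction; edgeR called 0.227% of genes lower in Ahr-null and 0.198% in control livers. Without overlap, 6 of the 8 were higher in control females (the 3 called, Sult1a1, Sult1c2 and Sult1d1), as were 9.19% of genes tested. In Ahr-null livers 3 were higher without overlap (the 2 called and Sult1c2), as were 6.38% of genes, and Sult3a1 was lower without overlap, as were 4.83%. In control livers none was lower without overlap, against 9.38% of genes. The genotype contrasts and the sex contrasts share libraries, and their values are set side by side without a measure of overlap.

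Summed over all 21 Sult rows, transcripts came to 235 ± 87.9 CPM in Ahr-null females, against 617 ± 24.0 CPM in control females (SD, n = 3 each). Without Ahr-null female replicate 1 the Ahr-null female mean was 191 CPM. Male sums were 250 ± 75.0 CPM with the AhR deletion and 461 ± 62.5 CPM in controls. The genotype groups did not overlap in females (147 to 323 CPM against 590 to 635 CPM) or in males (203 to 337 CPM against 390 to 505 CPM). Nothing is read from this, since the sums hold Sult3a1 and Sult2a1, chosen for their genotype differences. Singly, 9.86% of all genes tested were lower without overlap in females and 7.34% in males. Sult2a8, outside the 9, had male means of 61.6 CPM when Ahr-null and 208 CPM when control. Sums of the Sult1 rows overlapped in males, at 167.3 to 181.9 CPM without AhR and 170 to 230.1 CPM with it. In females they did not, at 136.5 to 292.4 CPM and 335.5 to 348.5 CPM. Per kilobase of exon, Sult1a1 was the highest member in each group, with 77.2 ± 26.0 CPM per kb in Ahr-null females, 118 ± 15.8 in control females, 80.2 ± 7.37 in Ahr-null males and 74.2 ± 14.5 in control males. In control females Sult1d1 (63.6 ± 11.2) and Sult3a1 (62.8 ± 14.99 CPM per kb) came next and did not differ beyond their spread. Sult2a1 and Sult2a2 followed at 33.8 ± 7.73 and 28.7 ± 9.31 CPM per kb. In Ahr-null females Sult1d1 came next at 36.3 ± 37.6 CPM per kb, or 14.6 without replicate 1, and no other Sult gene exceeded 2.703 CPM per kb on average.

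**Figure D4:**
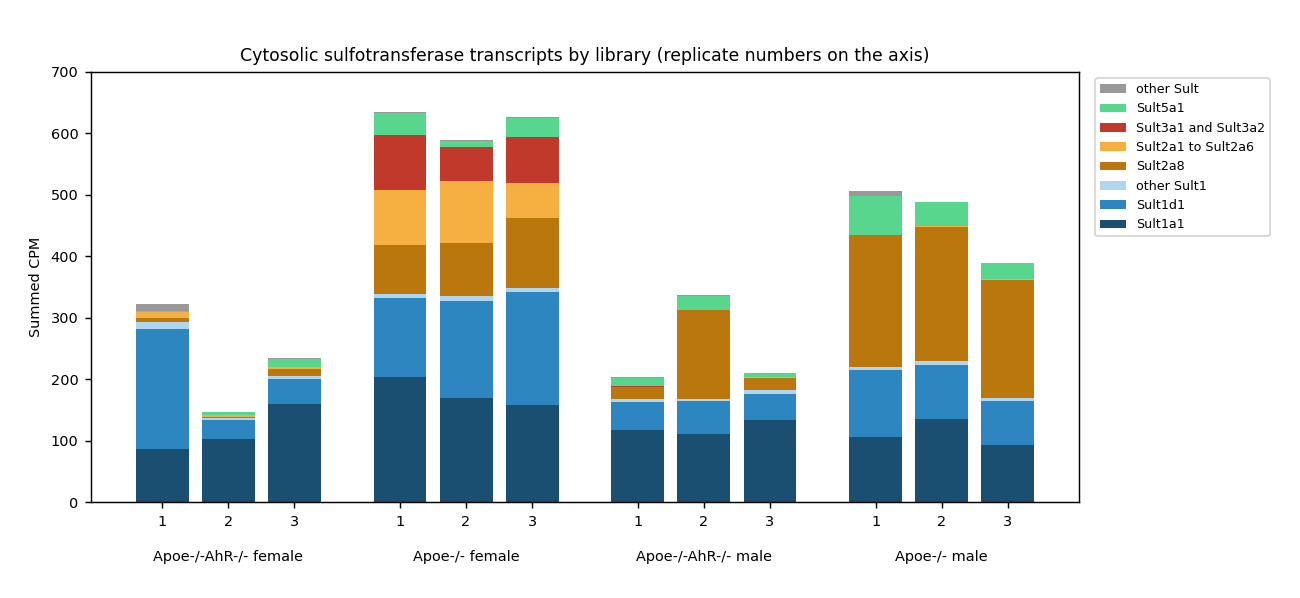
Summed CPM of the 21 Sult rows in each library, stacked by gene or gene group, with replicate numbers under the bars. Bars reach 147 to 323 CPM in Ahr-null females, 590 to 635 CPM in control females, 203 to 337 CPM in Ahr-null males and 390 to 505 CPM in control males, and the segments of Sult3a1 and of Sult2a1 to Sult2a6 are visible mainly in control females.

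The genes that supply the sulfonate donor were followed as a list: PAPS synthases, sulfate and PAPS transporters and the phosphatases that clear the product. None of 9 tested genes was called by genotype averaged over the sexes by edgeR, DESeq2 or limma, 1 had an unadjusted p under 0.05, and the median log2 difference was -0.01 against 0.04 over all genes tested. Papss2, the main hepatic PAPS synthase, read 74.7, 52.2 and 127.6 CPM in Ahr-null females, against 73.7, 87.9 and 78.4 CPM in control females. The male livers held 51.7, 26.9 and 51.9 CPM when Ahr-null, against 48.8, 60.6 and 43.7 CPM when control, so the genotypes overlapped in both sexes. Of 10 genes that oxidise sulfur to sulfate, none was called by edgeR, DESeq2 or limma in the same contrast, where edgeR called 1.06% of all genes. By edgeR 1 of the 10 had an unadjusted p under 0.05, as did 2088 of all 13641 genes tested.

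Among the enzymes that remove or add sulfate elsewhere in the cell, 1 of 12 sulfatases was called by averaged genotype by edgeR, against 1.06% of all genes, and DESeq2 called 1 higher and 1 lower. Arsg, a lysosomal arylsulfatase, read 13.7, 8.78 and 13.5 CPM in Ahr-null females, against 5.73, 4.47 and 3.83 CPM in control females. In males it read 19.5, 15.4 and 17.6 CPM in Ahr-null livers, against 6.06, 9.60 and 7.01 CPM in control livers. It was higher in Ahr-null livers of both sexes without overlap (1.283 ± 0.193, adjusted p = 0.0134). The call was lost in 4 of 12 omissions, those of control female replicates 2 and 3 and Ahr-null male replicates 1 and 3 (adjusted p from 0.0504 to 0.0741). Of 15 Golgi sulfotransferases, which modify proteins, glycans and lipids, none was called by edgeR or limma, DESeq2 called 1 and 2 had an unadjusted p under 0.05. Of all 13641 genes tested, 2088 had an unadjusted p under 0.05 by edgeR, and DESeq2 called 325 higher and 339 lower. The smallest p belonged to Gal3st1, the cerebroside sulfotransferase (1.58 ± 0.41, adjusted p = 0.094).

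Of 19 transcription factors and hormone receptors known to act on Sult genes, none was called by genotype by edgeR or limma, DESeq2 called 2 lower and 5 had an unadjusted p under 0.05. The median log2 difference was -0.34 against 0.04 over all genes tested, and 16 of the 19 values were negative. Of all 13641 genes tested, 6245 values were negative and 2088 had an unadjusted p under 0.05 by edgeR. DESeq2 called 339 of them lower. Nr1i3, the constitutive androstane receptor, a regulator of drug metabolism, read 2.39, 14.9 and 22.9 CPM in Ahr-null females, against 65.4, 35.7 and 62.6 CPM in control females. Ahr-null males had 8.29, 15.7 and 4.62 CPM of it, against 17.3, 32.2 and 39.6 CPM in control males. The groups did not overlap in either sex, and the averaged difference did not pass the test (-1.83 ± 0.45, adjusted p = 0.0798). Without Ahr-null female replicate 1, which held its lowest value, the adjusted p was 0.0176. Stat5b read 19.0 to 27.3 CPM in Ahr-null females, against 20.6 to 30.7 CPM in control females.

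Other genes with known female bias in mouse liver were set beside the Sult members. Of 13 tested, 6 were called higher in control females than in control males, against 0.154% of all genes. In Ahr-null livers none was called by edgeR or limma, where edgeR called 0.0513% of all genes higher. By edgeR 9 of the 13 had an unadjusted p under 0.05, as did 1184 of all 13641 genes tested. DESeq2 called 5 of the 13 higher, and 83 of all genes. Cux2, a transcription factor of female liver, read 4.59, 31.5 and 21.2 CPM in Ahr-null females, against 67.9, 52.7 and 8.33 CPM in control females, and overlapped. Its sex difference in control livers was 4.49 ± 0.81 (adjusted p = 0.0385), kept without control female replicate 3, Ahr-null female replicate 1 or Ahr-null female replicate 2 and lost in the other 9 omissions (adjusted p from 0.0674 to 0.351). Of 15 male-biased genes, 8 were called lower in females among Ahr-null livers, against 0.227% of all genes, and 9 among control livers, against 0.198%.

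The genes whose levels ran most like those of the members over the 12 livers were looked up among 10926 genes by Pearson r of log2 CPM, as a description of likeness in which the points share libraries and depth. For Sult5a1 they were Slc29a1, Sphk2 and Mast3, with r of 0.964, 0.963 and 0.955 (0.939, 0.934 and 0.913 without Ahr-null female replicate 1). For Sult1d1 they were Dcun1d1, Pank1 and Wwp1 (0.948, 0.944 and 0.937), with 0.981, 0.930 and 0.921 over the 11 livers left without Ahr-null female replicate 1. For Sult1b1 the nearest gene was Csrp3 (0.952, or 0.946 without that library), and for Sult1a1 it was Dapk1, at a lower r of 0.834, or 0.785 without it.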

How the data were processed

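RNA-seq of total RNA from 12 livers (3 of each sex and genotype) was analysed from a gene-by-library table that the authors deposited as raw read counts. A second deposited table holds DESeq2 variance-stabilised values, near the log2 scale. The submitters' processing notes name STAR 2.7.8 and the build GRCm38, with Trim Galore 0.6.5, DESeq2 1.28.1 and FastQC 0.11.8. Which program counted reads, whether by strand, and what became of reads with several matches is not given in the sources used here. Reads could be split among near-identical Sult2a genes, and overlapping or antisense genes cannot be told apart. Per the labels' protocols, mice were flushed with PBS and RIN averaged 7.0.

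The test on counts was that of edgeR 4.0.16 under R 4.3.3 (quasi-likelihood, robust, 1 mean per group, TMM scaling). Filtering by group left 13641 genes, and p-values were adjusted by Benjamini-Hochberg over them, two-sided, at 0.05. Contrasts were Ahr-null minus control, female minus male, and the genotype effect in females minus that in males. The members, lists and tests were chosen with earlier results of these data known. All 9 members are named, as is each other Sult gene that passed the filter. From each list the text names some of up to 3 genes with the smallest p, and Papss2 and Stat5b were named after their values were seen. Replicate numbers follow accession order. Groups with no count were set to a floor of 3 counts in total, and exact 95% intervals cover counting error only. In the shallowest library, at 9794253 counts, precision is lowest. Genes were matched to GENCODE M21 by Ensembl ID (27275 genes). Alternatives were RLE factors, library size alone, no filter, DESeq2 1.42.0, limma 3.58.1 on the deposited values, and leaving out libraries. Leaving Ahr-null female replicate 1 out of levels per kb, sums and likeness was chosen after seeing the data.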

Additional observations from a re-analysis of the deposited data

Results flagged for a closer look

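Sult3a1 is listed because the model's term for a genotype effect that differs between the sexes passed the threshold: the effect in females minus that in males was -10.39 ± 1.24 on the log2 scale, with an edgeR adjusted p of 0.0202. DESeq2 gave -10.63 and limma on the deposited values -6.62 for the same difference. All 3 Ahr-null females lay below all 3 control females, and the male groups, at 10 counts in Ahr-null and 7 in control livers, overlapped. The gene was chosen with its genotype difference and its values by sex known, and it entered the tested genes through control females alone, so this p is no independent support for a difference. The term stayed past the threshold in 3 of 12 omissions of 1 library, those of Ahr-null female replicate 1 and of replicates 1 and 3 of control males, and the adjusted p was 0.0656 to 0.464 in the other 9.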

How the results depend on the processing

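No paired analysis was possible because the replicate numbers follow accession order and pair no samples across groups. Of 43 gene fold changes recomputed under each alternative, 769 values were obtained: 637 kept direction and side of the threshold, 102 lost the call, 30 gained it and none changed sign. The counts of called genes were 144 by genotype averaged over sexes, 5 in males, 22 in females, 1 for the interaction, and 38 and 48 by sex in Ahr-null and control livers. Library size alone, which shifted the median log2 difference of all genes by genotype to 0.53 from 0.04 through composition, gave 1053, 12, 117 and 3 for the first 4. DESeq2 gave 664, 106, 491, 20, 223 and 142, with 4 members called by averaged genotype and 2 for the interaction. Limma on the deposited values gave 9 in males, 45 in females and 4 for the interaction, with 3 members for the interaction and 1 by sex in Ahr-null livers. Without the 2 libraries with neural transcripts the counts were 432, 27, 235, 4, 110 and 79, and 4 members were called by averaged genotype. Leaving out single libraries gave 6 to 663, 0 to 57, 3 to 153, 0 to 2, 11 to 90 and 19 to 101 genes, and 0 to 4 members by averaged genotype, 2 to 4 in females, 0 to 1 for the interaction, 0 to 2 by sex in Ahr-null livers and 3 in control livers. The cause of these shifts was not tested. Among the Sult genes named, depth limits Sult1e1, Sult2a3, Sult2a4, Sult2a7, Sult2b1 and Sult3a2, which held fewer than 50 counts in every group.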
